A study of Arabidopsis thaliana with 18 samples.

Results

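Root cultures treated with CMP for 4 h were compared with root cultures treated with fenclorim for 4 h, using 3 ATH1 arrays for each compound out of 18 in the series. All groups were of the wild type Col-0 of Arabidopsis thaliana, grown in darkness in Gamborg's B5 medium and taken for treatment 14 days after they were started. Fenclorim is a dichlorinated phenylpyrimidine applied to rice as a safener, an agent that protects a crop from herbicide injury. The labels give the other compound only by its code name CMP, and they give no dose for either, so compound and dose cannot be told apart. Acetone is the solvent control, and its 3 arrays at 4 h, together with the 3 arrays of each group at 24 h, are given beside the comparison. The series title names safening by fenclorim, and the comparison asks which transcripts separate the compounds early. Replicates are numbered, but whether each came from its own culture is not said, and the p-values cover only array-to-array spread that may be technical.

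The members are the probe sets, groups of short probes that stand for a gene, that lay above the 40th percentile of their array in at least 3 of the 6 arrays. They numbered 13946 of the 22746 that are not controls, and 7474 of them carry a single gene name, so each family is described by the members that have one. Each value is a signal on the authors' linear scale. Differences are mean log2 signals of CMP minus fenclorim, ± SE, with 3 arrays per group, so that a negative value is a lower signal with CMP. A probe set was called at a limma adjusted p under 0.05, with Benjamini-Hochberg adjustment over all 13946. RNA came from whole cultures, so that fewer cells of a type and less RNA per cell cannot be told apart.

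Plants handle foreign compounds in stages. Cytochromes P450 and reductases modify the molecule, glutathione transferases and UDP-glycosyltransferases attach glutathione or a sugar, and transporters move the product out of the cytosol. Reactive electrophiles and oxylipins, which are oxygenated fatty acid derivatives, raise transcripts of these stages, and glutathione synthesis draws on assimilated sulfur. Safeners are known for raising the same detoxifying enzymes in cereals.

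The arrays separated by compound, with 1 array of each group apart from its partners. On the first principal component of the 6 arrays, which held 48.6% of the variance, the CMP arrays lay at 45.0, 17.1 and 43.0 and the fenclorim arrays at -32.3, -38.8 and -34.0 for replicates 1, 2 and 3. The second component held 31.6% and set CMP replicate 2 (36.6) and fenclorim replicate 3 (43.5) apart from the other 4 arrays (-30.1 to -8.90). Across probe sets, which are not independent replicates, these 2 arrays correlated with each other at 0.950. With the partners in its own group CMP replicate 2 correlated at 0.949 and 0.947, and fenclorim replicate 3 at 0.937 and 0.930, so the latter was more like an array of the other compound than like its partners. Spiked poly-A controls had a mean log2 signal of 7.67 on CMP replicate 2, against 6.30 and 6.32 on the other CMP arrays. On fenclorim replicate 3 it was 7.43, against 7.16 and 6.85. The part of these control signals in the results was not tested. Some of the counts are therefore also given without both arrays. The defining markers of root cell types were mostly unnamed: 3 root hair genes, EXPA18, EXPA7 and GH9C1, could be read and lay under the 40th percentile on each of the 6 arrays, and no marker of leaf cells was named.

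Between the compounds 551 probe sets were higher with CMP (3.95% of those tested) and 575 were lower (4.12%), 8.07% together. Without CMP replicate 2 and fenclorim replicate 3 the counts were 541 and 534. Leaving out CMP replicate 1 gave 264 and 342, CMP replicate 3 gave 297 and 347, fenclorim replicate 1 gave 348 and 383, and fenclorim replicate 2 gave 278 and 323. Among the calls, 342 increases and 355 decreases were at least 2-fold, and 74 and 90 at least 4-fold. The arrays of the compounds did not overlap for 544 and 568 of the called probe sets, against 12.1% and 12.8% of all tested. Of the 182 probe sets that passed the filter only through 1 group's arrays, 85 were called, and of the 12061 above the 40th percentile on all 6 arrays 455 were higher and 481 lower (7.76%). In all, 2998 probe sets, calls included, had an unadjusted p under 0.05. The median difference over all tested probe sets was 0.01, and 597 of the calls fell on probe sets with no single gene name.

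**Figure D1:**
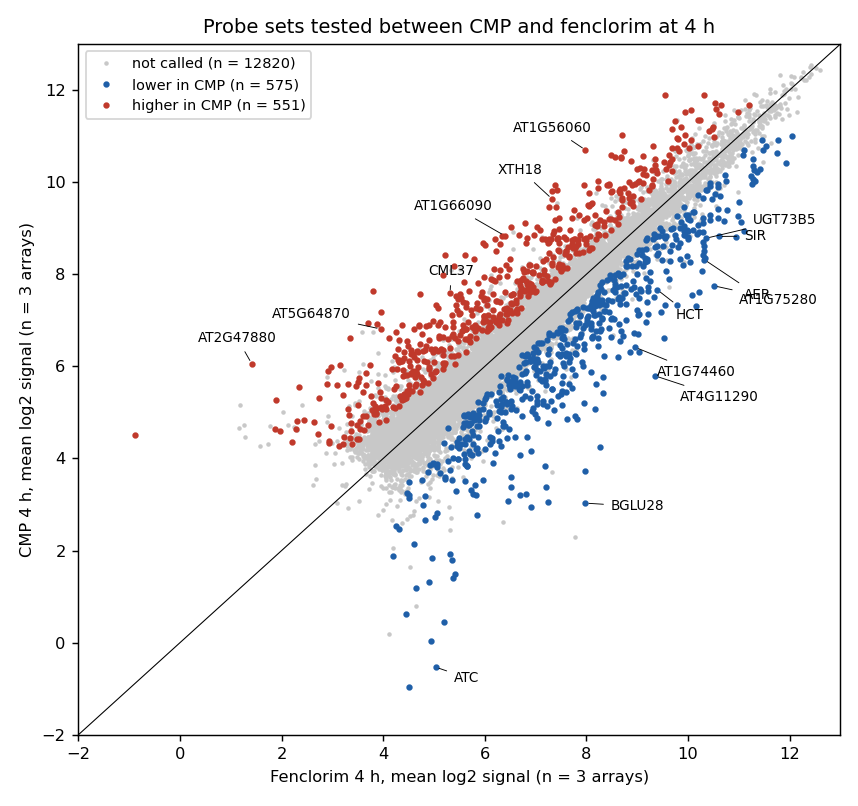
Mean log2 signal of each tested probe set with fenclorim (horizontal axis) and with CMP (vertical axis) at 4 h, each over 3 arrays, with the 551 called higher in red, the 575 called lower in blue and the line of equal signal. The blue points BGLU28, AT4G11290 and AT1G75280 lie far below the line, the red points AT1G56060, AT1G66090 and XTH18 above it, and the points with means under about 4 scatter widely.

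Among detoxification genes AER and UGT73B5 were lower with CMP than with fenclorim, while both compounds stood above acetone. Of 8 tested members of the electrophile and oxylipin list, 0 were higher and 3 were lower, and the median difference was -0.85. Over all tested probe sets the shares were 3.95% and 4.12%. Without CMP replicate 2 and fenclorim replicate 3 together, 2 members of the list were lower. AER encodes alkenal reductase, an NADPH-dependent enzyme that reduces reactive unsaturated carbonyls. Its signals were 1307, 1280.0 and 1254 with fenclorim, 531, 278 and 219.6 with CMP and 64.03, 78.1 and 37.5 with acetone. The fenclorim arrays were close to each other and all above CMP, and both compounds lay above acetone. The difference was -2.01 ± 0.31 (limma adjusted p = 0.000587). UGT73B5, a UDP-glycosyltransferase that responds to oxidative stress, read 1461, 1469.7 and 1045 with fenclorim, 519, 463 and 356 with CMP and 9.97, 17.7 and 16.4 with acetone. Again the compounds did not overlap, with CMP between acetone and fenclorim, and the difference was -1.57 ± 0.30 (limma adjusted p = 0.00336). The third call, AT4G01870, was -1.04 ± 0.29 (limma adjusted p = 0.0354), and it lost the call without CMP replicate 2, CMP replicate 3, fenclorim replicate 1, fenclorim replicate 2 or fenclorim replicate 3 (limma adjusted p of 0.0525 to 0.153; 0.00715 to 0.153 over all alternatives).

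Other strongly raised genes of this list were not separated by the test. UGT73B4, a close relative of UGT73B5, read 1143, 1084 and 746 with fenclorim and 435, 259 and 254 with CMP, without overlap. Its difference of -1.67 ± 0.74 missed the threshold (limma adjusted p = 0.2) in the fit over all 18 arrays, which shares its spread with acetone arrays that read 0.52, 1.09 and 9.68. With only the 6 arrays the adjusted p was 0.0074, with 16 added to every signal it was 0.00228 at a difference of -1.62, and over all alternatives it ran from 0.00228 to 0.398. GSTU25, a tau class glutathione transferase that conjugates glutathione to foreign compounds, read 1088, 935 and 1331 with fenclorim and 721, 1050.0 and 447 with CMP. Its difference was -0.67 ± 0.57, with a 95% interval of -1.86 to 0.53 that spans 0; intervals here are not adjusted for the number of probe sets. The aldo-keto reductase AT1G60750 had an interval of -2.20 to 1.18 and the carboxylesterase-like AT1G68620 one of -0.75 to 0.29. None of the 8 tau class members was called with either sign, against 8.07% of all tested probe sets, and their median was -0.15. Fenclorim replicate 3 bore on this count: without it 1 was higher and 1 was lower, and without that array and CMP replicate 2 there was 1 lower.

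Among 31 tested UDP-glycosyltransferases, which attach sugars to hormones, phenolics and foreign compounds, 0 were higher and 3 were lower, with a median of -0.36. These counts stand beside 3.95% higher and 4.12% lower over all tested probe sets. Leaving out CMP replicate 2 and fenclorim replicate 3 together gave 2 lower. UGT71C3 read 33.03, 38.4 and 40.5 with fenclorim and 12.3, 12.9 and 10.2 with CMP, and its difference was -1.66 ± 0.35 (limma adjusted p = 0.00665). It passed the filter only through the fenclorim arrays, and with 16 added to every signal the difference was -0.94. UGT74D1, a glucosyltransferase that acts on auxins, was -0.93 ± 0.24 (limma adjusted p = 0.0239), and it lost the call without CMP replicate 2, CMP replicate 3, fenclorim replicate 1 or fenclorim replicate 3 (limma adjusted p of 0.0534 to 0.125; 0.0101 to 0.175 over all alternatives). The 10 tested cytochromes P450 were all CYP71B genes except CYP84A4, so other groups of the family were hardly read. Of them 1 was higher, against 3.95% of all tested probe sets. This was CYP71B24 at 1.05 ± 0.27. It lost the call without CMP replicate 1, CMP replicate 3, fenclorim replicate 2 or fenclorim replicate 3 (limma adjusted p of 0.0513 to 0.134, and 0.00133 to 0.146 over all alternatives). Without fenclorim replicate 3, alone or with CMP replicate 2, 0 of these cytochromes P450 were higher and 1 was lower.

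Transporters split by gene. MATE proteins export organic compounds and their conjugates across membranes, and of 21 tested members 2 were higher with CMP and 8 were lower, with a median of -0.68. The shares over all tested probe sets were 3.95% and 4.12%. The family was added after fold changes had been seen, so its counts add no support, and 1 tested member passed the filter only through 1 group's arrays. Leaving out 1 array kept the 2 higher calls and gave 5 lower calls without CMP replicate 3, fenclorim replicate 1 or fenclorim replicate 2, and 6 to 8 without each of the others. AT1G33110 read 368, 334 and 294 with fenclorim, 175, 153 and 117 with CMP and 33.7, 35.3 and 34.5 with acetone. The order was acetone, CMP, fenclorim with no overlap, and the difference was -1.18 ± 0.15 (limma adjusted p = 0.000169). AT5G65380 had the same order, at 1158, 1025 and 1105 with fenclorim and 549, 511 and 448 with CMP, and a difference of -1.13 ± 0.16. AT1G66760 differed by -1.76 ± 0.36 and AT1G47530 by -0.68 ± 0.14. The higher pair ran the other way. AT2G04070 read 288, 431 and 269.7 with CMP, 36.1, 40.01 and 119 with fenclorim and 10.9, 11.1 and 4.51 with acetone, a difference of 2.54 ± 0.39 (limma adjusted p = 0.000657). Its neighbour AT2G04050 read 345, 362 and 207 with CMP and 79.1, 71.5 and 110.1 with fenclorim, a difference of 1.79 ± 0.33 (limma adjusted p = 0.00281). These loci are close relatives, and shared hybridisation between them was not tested. OCT5, an organic cation transporter, belonged with the lower group: 905, 1002 and 1113 with fenclorim against 424, 436 and 206 with CMP and 33.03, 52.8 and 51.02 with acetone, a difference of -1.58 ± 0.29 (limma adjusted p = 0.00294).

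Only 3 of the 15 loci on the sulfur and glutathione list were named and tested, so most of the list was not read. All 3 were lower with CMP, against 4.12% of all tested probe sets, and each kept its call when any single array was left out. SIR encodes sulfite reductase, which makes sulfide for cysteine synthesis. Its signals were 1580.4, 1685 and 1404 with fenclorim, 478, 473 and 409 with CMP and 581, 484 and 539.7 with acetone. The CMP arrays lay just below the lowest acetone array and the fenclorim arrays far above both, and the difference was -1.78 ± 0.14 (limma adjusted p = 2.56e-06). Against acetone, SIR was 1.54 ± 0.14 with fenclorim and -0.24 ± 0.14 with CMP (limma adjusted p = 0.181 for CMP). APS3, an ATP sulfurylase at the first step of sulfate assimilation, read 138, 128 and 83.7 with fenclorim and 59.2, 42.03 and 44.5 with CMP, a difference of -1.25 ± 0.21 (limma adjusted p = 0.00125). BGLU28 is a beta-glucosidase that releases sulfur from glucosinolates and is known for rising when sulfur is short. It read 349.8, 400.3 and 115 with fenclorim, 8.86, 3.74 and 16.5 with CMP and 6.13, 5.81 and 2.43 with acetone. No array of CMP or acetone reached the 40th percentile, so BGLU28 passed the filter only through the fenclorim arrays, and its kept call adds no support. Its difference of -4.95 ± 0.98 (limma adjusted p = 0.00438) is uncertain in size, and it was -3.43 with 16 added to every signal. AT1G75280, an isoflavone reductase-like protein on no list, had the same order of groups. Its signals were 1318, 1603 and 1471 with fenclorim, 273, 217 and 168 with CMP and 132, 188 and 248 with acetone, and the difference was -2.76 ± 0.39 (limma adjusted p = 0.000312).

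**Figure D2:**
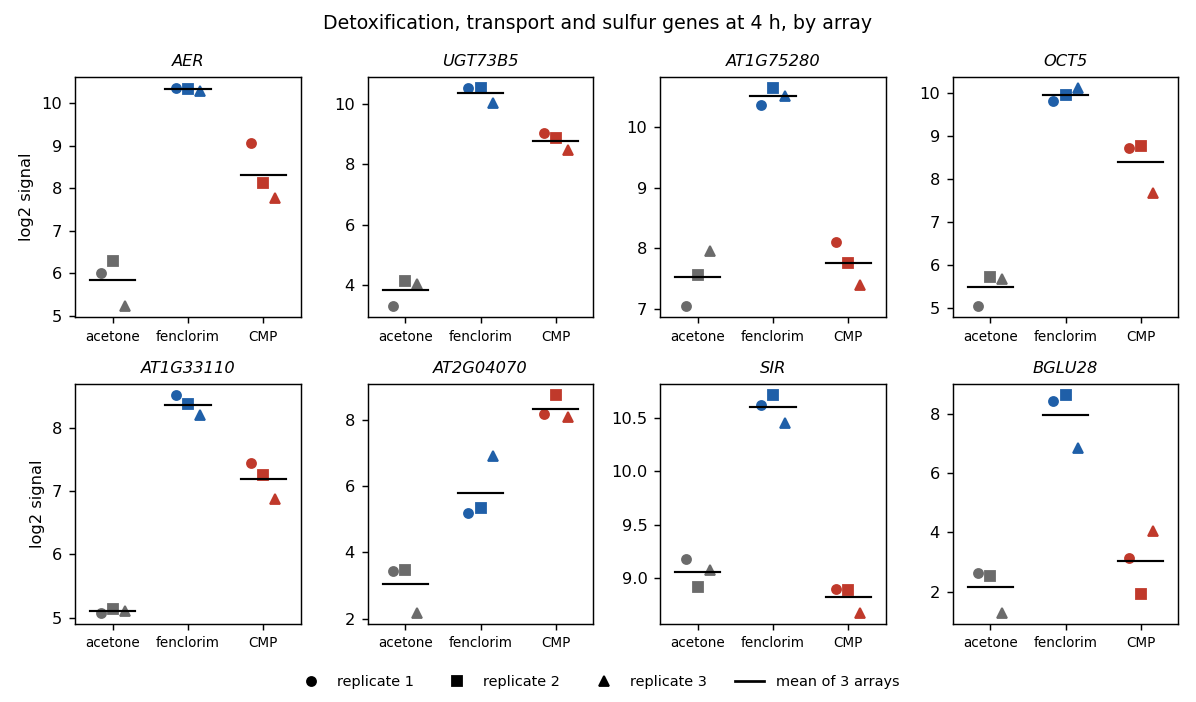
Log2 signal of 8 genes on each 4 h array, by treatment, with marker shapes for the replicate numbers and a bar for the mean of 3 arrays; the vertical axis differs between panels. AER, UGT73B5, OCT5 and AT1G33110 show CMP between acetone and fenclorim, SIR, BGLU28 and AT1G75280 show CMP near acetone, and AT2G04070 is highest with CMP.

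Genes of the cell wall and its polymers moved in both directions. HCT, a shikimate hydroxycinnamoyl transferase of lignin synthesis, read 638, 669.7 and 719 with fenclorim, 161, 254 and 203 with CMP and 606, 707 and 665 with acetone. Here fenclorim overlapped acetone and CMP lay below both, with a difference of -1.74 ± 0.16 (limma adjusted p = 1.01e-05). CCR2, a cinnamoyl-CoA reductase of the same pathway, was -1.09 ± 0.30 (limma adjusted p = 0.0313), and it lost the call without CMP replicate 1, CMP replicate 3, fenclorim replicate 1, fenclorim replicate 2 or fenclorim replicate 3 (limma adjusted p of 0.0649 to 0.154; 0.00106 to 0.154 over all alternatives). HCT and CCR2 were the only named members of the phenylpropanoid list of 13 loci.

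Class III peroxidases are secreted enzymes that use hydrogen peroxide to cross-link or loosen wall polymers. Of 34 tested, 3 were higher with CMP and 6 were lower, against 3.95% and 4.12% of all tested probe sets. The median was -0.58. The family was added after fold changes had been seen, so its counts add no support. The counts moved with single arrays: 4 were higher and 10 lower without fenclorim replicate 3, 3 and 3 without CMP replicate 1, 2 and 7 without CMP replicate 2, 1 and 5 without CMP replicate 3, and 2 and 4 without fenclorim replicate 1 or 2. Without CMP replicate 2 and fenclorim replicate 3 together they were 1 and 9. AT4G11290 read 728, 676 and 563 with fenclorim, 40.8, 74.6 and 56.3 with CMP and 135, 137 and 211 with acetone. Fenclorim lay above acetone and CMP below it, and the difference was -3.55 ± 0.26 (limma adjusted p = 2.52e-06). AT1G68850 read 159.6, 212 and 158 with fenclorim, 44.5, 52.4 and 29.9 with CMP and 19.8, 15.5 and 20.3 with acetone, so that both compounds were above acetone. Its difference was -2.09 ± 0.28 (limma adjusted p = 0.000195), and that of AT4G30170 was -1.40 ± 0.29 (limma adjusted p = 0.0057). AT5G39580 had the opposite sign, with 707, 650.0 and 835 for CMP, 286, 294 and 212 for fenclorim and a difference of 1.48 ± 0.24 (limma adjusted p = 0.000963). These 4 kept their calls in every single-array omission.

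Among 25 tested GDSL lipases, secreted esterases of which some act on cutin and suberin, 1 was higher and 5 were lower. Over all tested probe sets 3.95% were higher and 4.12% lower. The family median was 0.03. This family too was added after fold changes had been seen, so its counts add no support. Of its tested members 1 passed the filter only through 1 group's arrays. Without CMP replicate 2 and fenclorim replicate 3 together 5 were lower and 2 were higher. Without CMP replicate 3 or fenclorim replicate 2 there were 3 lower and 0 higher, without CMP replicate 1 there were 5 and 0, and without fenclorim replicate 3 there were 6 and 2. AT1G74460 read 371, 719 and 462 with fenclorim, 91.9, 84.2 and 80.2 with CMP and 68.9, 94.3 and 95.5 with acetone. CMP overlapped acetone and fenclorim lay above both, a difference of -2.54 ± 0.25 (limma adjusted p = 1.24e-05). AT2G23540 read 358, 471 and 118 with fenclorim and 62.99, 67.1 and 47.8 with CMP. Fenclorim replicate 3 was the lowest of its group there and still above CMP, and the difference was -2.21 ± 0.37 (limma adjusted p = 0.00134). AT5G37690 differed by -1.96 ± 0.31 (limma adjusted p = 0.000899).

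Wall-loosening genes did not share a direction. Xyloglucan endotransglucosylases cut and rejoin xyloglucan chains, and of 4 tested 3 were higher with CMP, against 3.95% of all tested probe sets. XTH18 read 1067, 629 and 754 with CMP, 102, 192 and 209 with fenclorim and 187, 181 and 121 with acetone. Fenclorim overlapped acetone and CMP lay above both, and the difference was 2.32 ± 0.42 (limma adjusted p = 0.00245). XTH19 read 144, 55.2 and 48.8 with CMP and 14.2, 26.7 and 24.9 with fenclorim, a difference of 1.79 ± 0.33, and here both compounds lay below acetone (227, 283 and 247). XTH16 was 1.31 ± 0.33, and it lost the call without CMP replicate 1, CMP replicate 3, fenclorim replicate 1 or fenclorim replicate 2 (limma adjusted p of 0.0538 to 0.122; 5.5e-05 to 0.122 over all alternatives). Expansins are proteins that loosen the wall without cutting it. Against 3.95% and 4.12% of all tested probe sets, 0 of 8 tested were higher and 1 was lower, with a median of -0.46. This was EXPA9, at 128, 172 and 201 with fenclorim and 24.3, 42.3 and 36.4 with CMP, a difference of -2.29 ± 0.28 (limma adjusted p = 8.37e-05). Fenclorim replicate 3 moved the expansin count to 1 higher and 1 lower when left out, and CMP replicate 2 to 2 lower. AT3G47380, an inhibitor of the pectin methylesterase type, read 250.3, 283 and 471 with fenclorim, 34.2, 50.03 and 45.5 with CMP and 57.8, 70.8 and 53.5 with acetone, a difference of -2.91 ± 0.28 (limma adjusted p = 1.04e-05). CMP lay below acetone for this gene and fenclorim above it.

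**Figure D3:**
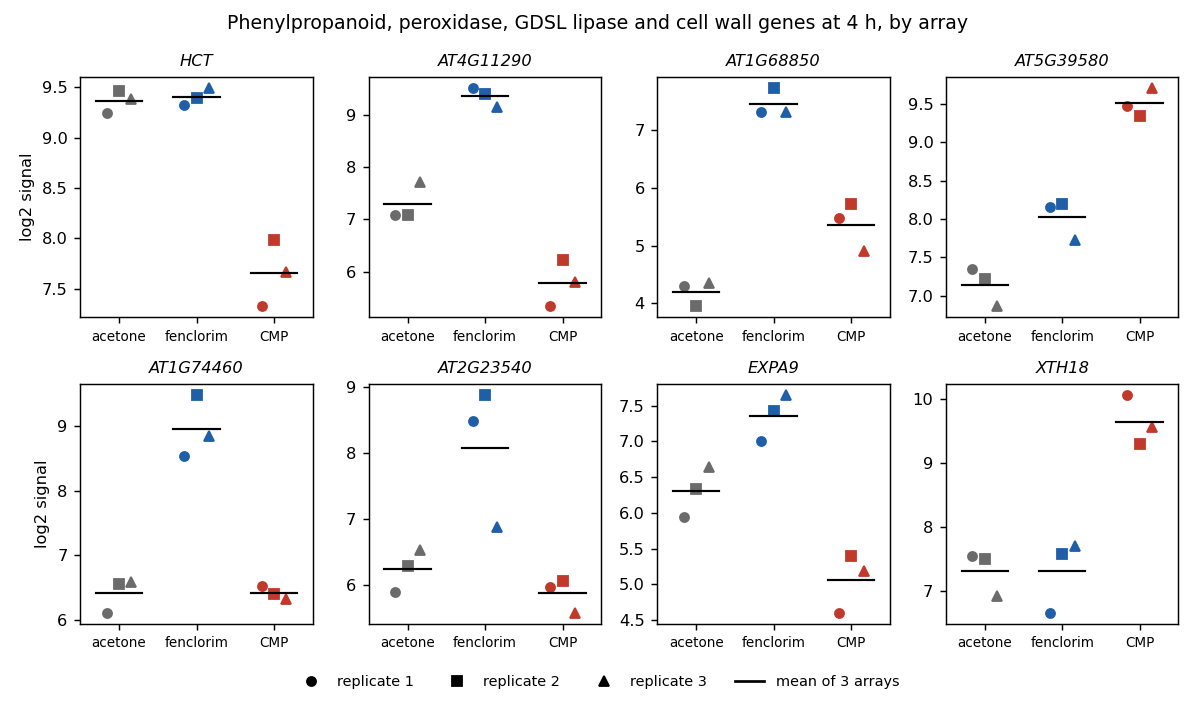
Log2 signal of 8 genes of phenylpropanoid synthesis and the cell wall on each 4 h array, drawn with a marker per replicate and a bar for the mean of 3 arrays; the vertical axis differs between panels. HCT, AT4G11290 and EXPA9 are lowest with CMP, the lipases AT1G74460 and AT2G23540 are highest with fenclorim, and AT5G39580 and XTH18 are highest with CMP.

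The calls among calmodulin-like genes were all higher with CMP, as were those among TIR-domain genes except 1. Calmodulin-like proteins bind calcium and pass on its changes. Against 3.95% and 4.12% of all tested probe sets, 4 of 7 tested were higher and 0 were lower, with a median of 1.33. Without CMP replicate 1, CMP replicate 3 or fenclorim replicate 2 there were 3. CML37 read 254, 157 and 176 with CMP, 39.6, 50.6 and 31.5 with fenclorim and 6.27, 7.08 and 4.06 with acetone. The groups did not overlap, acetone being lowest, and the difference was 2.27 ± 0.30 (limma adjusted p = 0.000165). CML41 differed by 1.61 ± 0.34 (limma adjusted p = 0.00673) and CML23 by 1.33 ± 0.26 (limma adjusted p = 0.00355). CML38 missed the threshold at 1.53 ± 0.48 (limma adjusted p = 0.0615), with an adjusted p from 0.00654 to 0.292 over the alternatives. AT3G01830, a calmodulin-like locus not among the 7, read 310.0, 220.3 and 234 with CMP and 30.5, 35.7 and 42.97 with fenclorim, a difference of 2.81 ± 0.38 (limma adjusted p = 0.000193). AT1G76640, of the calcium and touch list, was not called at 3.99 ± 1.26 (limma adjusted p = 0.0621). Of 7 tested on that list 3 were higher and 0 were lower.

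TIR-domain proteins include intracellular immune receptors and shorter relatives of them. Of 28 tested, 8 were higher with CMP and 1 was lower, against 3.95% and 4.12% of all tested probe sets. The median was 0.43. The family was added after fold changes had been seen, so its counts add no support. Without CMP replicate 1 there were 5 higher, and without each of the other arrays 6 to 9, with 0 lower in every omission except that of fenclorim replicate 3. Without CMP replicate 2 and fenclorim replicate 3 together there were 6 higher and 1 lower. AT1G66090 read 564, 397 and 428 with CMP, 87.1, 95.1 and 71.2 with fenclorim and 8.86, 7.80 and 14.5 with acetone. The groups stood well apart in that order, with a difference of 2.45 ± 0.23 (limma adjusted p = 1.01e-05). AT2G32140 read 92.5, 38.9 and 70.6 with CMP and 11.5, 7.63 and 5.59 with fenclorim, a difference of 3.00 ± 0.60. It passed the filter only through the CMP arrays, and with 16 added to every signal the difference was 1.73. AT5G58120 differed by 2.00 ± 0.38 and AT2G20142 by 1.97 ± 0.35. WRKY22, a transcription factor of immune signalling, was the 1 call among 5 tested WRKY factors. It read 333, 247 and 262 with CMP, 77.05, 83.2 and 110.4 with fenclorim and 55.8, 62.5 and 40.1 with acetone, a difference of 1.64 ± 0.19 (limma adjusted p = 5.14e-05). WRKY53 (0.93 ± 0.35) and WRKY6 (0.38 ± 0.25) were not called, with intervals of 0.19 to 1.67 and -0.16 to 0.91. The limma adjusted p of WRKY53 ran from 0.0473 to 0.378 over the alternatives, and it was called with array weights. The zinc finger gene STZ, an early stress regulator, was higher by 0.78 ± 0.18 (limma adjusted p = 0.0101). Without both arrays that stood apart its adjusted p was 0.0919, and over all alternatives from 0.00513 to 0.0919.

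Several of the largest increases lay outside the lists. AT1G56060, a small cysteine-rich membrane protein, read 1855, 1716 and 1442 with CMP, 250.1, 245 and 263 with fenclorim and 27.1, 53.5 and 24.9 with acetone. The arrays within each compound were close, and the difference was 2.72 ± 0.27 (limma adjusted p = 1.4e-05). AT5G64870, a flotillin-like protein of membrane microdomains, read 179, 78.1 and 102 with CMP, 17.1, 13.97 and 15.4 with fenclorim and 23.1, 13.8 and 16.5 with acetone, so that fenclorim overlapped acetone. Its difference was 2.86 ± 0.27 (limma adjusted p = 1.04e-05). The ankyrin-repeat proteins AT4G03450 and AT1G10340 differed by 3.22 ± 0.28 and 2.70 ± 0.28, with limma adjusted p of 6.14e-06 and 1.91e-05. AT4G03450 passed the filter only through the CMP arrays and was 2.35 with 16 added to every signal. AT1G10340 read 425, 304 and 523 with CMP, 45.97, 56.1 and 95.4 with fenclorim and 73.98, 56.04 and 70.7 with acetone, again with fenclorim among the acetone values. AT1G15010, for which no role is given here, differed by 2.56 ± 0.31, and the C1-domain protein AT2G17740 by 2.63 ± 0.49.

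CC-type glutaredoxins are small plant redox proteins that work with TGA transcription factors. Of 13 tested, 6 were higher with CMP and 2 were lower, against 3.95% and 4.12% of all tested probe sets. The family was added after fold changes had been seen, so these counts add no support. Of the higher members 2, AT2G47880 and AT3G62930, passed the filter only through the CMP arrays. The median was 0.97. Quantile normalization and centring on array medians each gave 4 higher and 2 lower. Leaving out CMP replicate 2 and fenclorim replicate 3 together gave 7 higher and 1 lower. Without CMP replicate 1 or fenclorim replicate 1 there were 2 higher and 0 lower, without fenclorim replicate 2 there were 2 and 1, without CMP replicate 2 there were 4 and 1, and without CMP replicate 3 there were 3 and 0. AT2G30540 read 63.04, 73.2 and 76.01 with CMP, 13.8, 15.6 and 36.8 with fenclorim and 146, 105 and 52.4 with acetone. CMP lay within the acetone range and fenclorim below both, and the difference was 1.82 ± 0.39 (limma adjusted p = 0.00778). AT2G47880 read 75.2, 60.96 and 64.7 with CMP, 1.23, 1.10 and 13.9 with fenclorim and 48.96, 41.6 and 13.9 with acetone. All fenclorim arrays of this gene were under the 40th percentile, so the difference of 4.65 ± 0.74 (limma adjusted p = 0.00087) has no firm size, and it was 2.00 with 16 added to every signal. GRX480, a member linked to salicylate and jasmonate signalling, had the opposite sign. It read 372, 289 and 297 with fenclorim, 111, 178 and 115 with CMP and 15.9, 15.5 and 33.1 with acetone, a difference of -1.27 ± 0.31 (limma adjusted p = 0.0164), and it lost the call without CMP replicate 1, CMP replicate 3 or fenclorim replicate 1 (limma adjusted p of 0.071 to 0.0834; 0.000307 to 0.0834 over all alternatives).

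**Figure D4:**
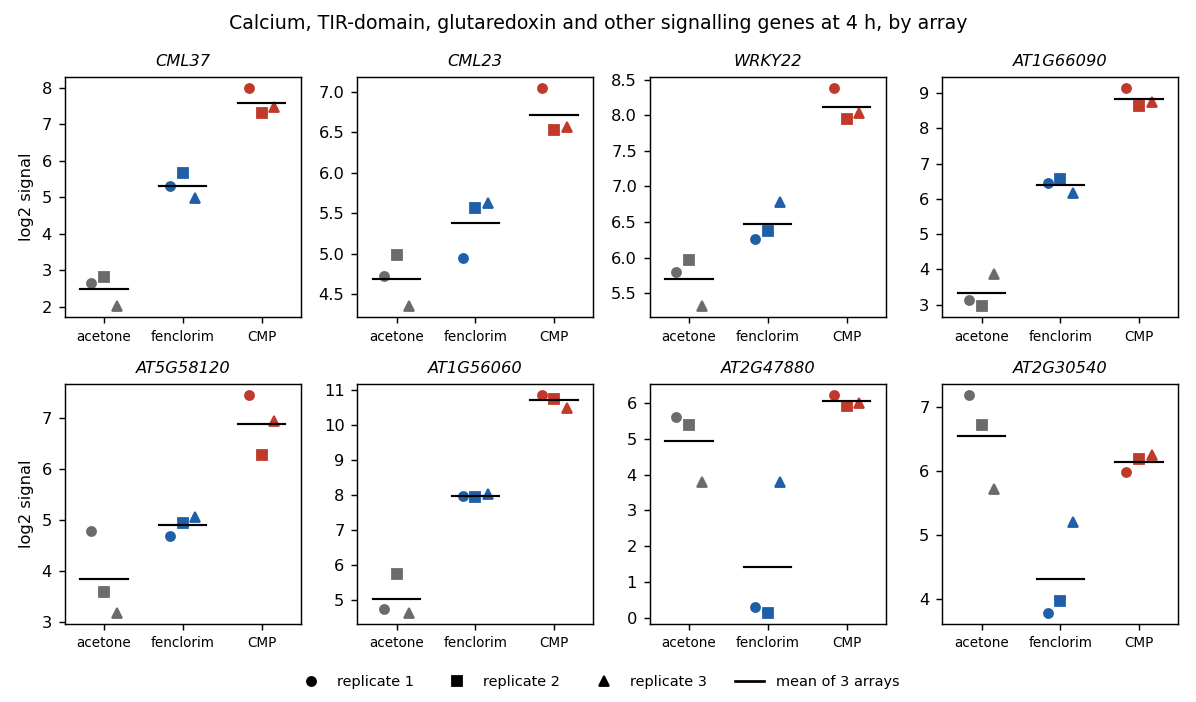
Log2 signal of 8 genes of calcium signalling, defence and redox control on each 4 h array, with replicates as marker shapes and group means as bars; the vertical axis differs between panels. In CML37, AT1G66090 and AT1G56060 the order is acetone, fenclorim, CMP without overlap, whereas the glutaredoxins AT2G47880 and AT2G30540 are lowest with fenclorim.

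Stress genes of mitochondria and the endoplasmic reticulum gave 1 call in each list, lost when some single arrays were left out, against 8.07% of all tested probe sets called. Of 5 tested mitochondrial stress genes 1 was higher, AT2G21640 at 1.64 ± 0.44 (limma adjusted p = 0.0294), and it lost the call without CMP replicate 1, CMP replicate 2, fenclorim replicate 1 or fenclorim replicate 2 (limma adjusted p of 0.0527 to 0.147; 0.000159 to 0.147 over all alternatives). NDB2, a mitochondrial dehydrogenase that bypasses the first proton-pumping complex, was not called at -0.83 ± 0.26 (limma adjusted p = 0.0587; from 0.00498 to 0.212 over the alternatives). Of 3 unfolded protein response genes 1 was higher, the transcription factor BZIP60, which answers misfolded protein in the endoplasmic reticulum. It read 1328, 1452 and 1011 with CMP, 593, 833 and 889.6 with fenclorim and 241, 279 and 238 with acetone, a difference of 0.72 ± 0.17 (limma adjusted p = 0.0134), and it lost the call without CMP replicate 1, CMP replicate 2 or fenclorim replicate 1 (limma adjusted p of 0.0512 to 0.0751; 0.00337 to 0.181 over all alternatives). The chaperone gene Hsp70-2 read 925, 945 and 958 with CMP and 397, 396 and 497 with fenclorim, a difference of 1.14 ± 0.15 (limma adjusted p = 0.00014), while 0 of 3 tested genes of the heat shock list were called. AT4G17260, a lactate dehydrogenase of fermentation, was the 1 higher gene of 3 on the hypoxia list. It read 516, 519 and 311 with CMP, 127, 142 and 202 with fenclorim and 145, 128 and 122 with acetone, a difference of 1.50 ± 0.20 (limma adjusted p = 0.00016), and fenclorim overlapped acetone.

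With 8.07% of all tested probe sets called, a count of 0 in a small family is near the background. Of 7 tubulins, 10 autophagy genes, 8 IQD proteins and 5 subtilases, 0 were called in either direction, with medians of 0.15, 0.14, -0.25 and 0.72. With only the 6 arrays 2 subtilases were higher and 1 was lower, and with array weights 2 tubulins, 2 subtilases and 1 autophagy gene were higher and 1 subtilase, 1 autophagy gene and 1 IQD protein were lower. TUB1 had an interval of 0.09 to 1.26 and TUB5 of -0.03 to 0.84, the cell division genes AUR1 and PRL of 0.03 to 1.38 and -0.19 to 0.71, and the subtilase SBT3.3 of -0.10 to 2.05. Over the alternatives the limma adjusted p of TUB1 ran from 0.0433 to 0.408, that of TUB5 from 0.032 to 0.531 and that of AUR1 from 0.00311 to 0.453, the lowest in each case with array weights, where they were called higher with CMP. Signals of SBT3.3 were 711, 658 and 611 with fenclorim, 1407, 1221 and 1254 with CMP and 2.40, 7.03 and 0.689 with acetone, so both compounds were far above acetone without a call between them. With only the 6 arrays, or with 16 added to every signal (0.95), it was called higher with CMP, at limma adjusted p of 0.00717 and 0.00143, and over all alternatives the adjusted p ran from 0.00143 to 0.503. EXPA8 and WAG2, whose acetone signals were 197, 286 and 181 and 54.6, 125 and 68.3, lay above the 40th percentile on 2 and 0 of the 6 compound arrays and were not tested.

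The largest decreases by rule were often of genes near the lower end of the scale with CMP. ATC, a relative of the flowering regulator TFL1, read 23.6, 34.8 and 42.5 with fenclorim and 1.06, 0.557 and 0.562 with CMP, a difference of -5.56 ± 1.12 that became -1.55 with 16 added. Like ATC, AT2G43390 and AT4G16563 passed the filter only through the fenclorim arrays. AT2G43390 was -4.75 ± 0.92 and -1.59 with 16 added, and AT4G16563, an aspartyl protease, was -3.82 ± 0.34 and -1.10. AT5G66985, for which no role is given here, held more of its size. It read 127, 192 and 145 with fenclorim, 4.18, 18.3 and 7.38 with CMP and 27.05, 19.7 and 27.3 with acetone, a difference of -4.21 ± 0.45 that was -2.74 with 16 added. These 4 kept their calls in every single-array omission. For ATC, AT2G43390 and AT4G16563, which the filter took through the fenclorim arrays alone, the kept calls add no support.

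The same contrast at 24 h takes its means from 6 other arrays, although all 18 arrays share the estimate of the spread in both tests. At 24 h 2526 of the 13946 probe sets were higher with CMP (18.1%) and 2042 were lower (14.6%), 32.8% together. The median 24 h difference over all tested probe sets was 0.08, slightly on the positive side. Of the 551 that were higher at 4 h, 458 were positive at 24 h, 325 were called higher (59.0%) and 18 were called lower. Of the 575 that were lower at 4 h, 517 were negative at 24 h, 336 were called lower (58.4%) and 9 were called higher. Without CMP 4 h replicate 2 and fenclorim 4 h replicate 3 together, 277 were called higher and 304 lower at both times. SIR differed by -1.78 ± 0.14 at 4 h and by -1.85 ± 0.14 at 24 h, and HCT by -1.74 ± 0.16 and -1.58 ± 0.16. AER differed by -2.87 ± 0.31 at 24 h, AT1G75280 by -3.11 ± 0.39, AT1G66090 by 2.59 ± 0.23 and AT5G64870 by 2.58 ± 0.27. Each of these 24 h differences was called, with the sign it had at 4 h.

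The difference between the times was itself tested. It was called for 740 probe sets (5.31%), 463 with a higher value at 4 h (3.32%) and 277 with a lower one (1.99%), of which 144 were also called at 4 h, 78 of them higher and 66 lower. That count rests on single arrays: it was 206 without fenclorim replicate 1, 247 without fenclorim replicate 2, 353 without CMP replicate 2, 360 without CMP replicate 1 and 1558 without fenclorim replicate 3. Without CMP replicate 2 and fenclorim replicate 3 together it was 983. AT4G17260 differed by 1.50 ± 0.20 at 4 h and by -0.24 ± 0.20 at 24 h (limma adjusted p of the change = 0.00432). BZIP60 changed sign, at -0.86 ± 0.17 after 24 h (limma adjusted p of the change = 0.00373). The glutaredoxin AT2G30540 read -0.36 ± 0.39 at 24 h (limma adjusted p of the change = 0.0332) and the MATE gene AT2G04050 -0.58 ± 0.33 (limma adjusted p of the change = 0.0108). AT4G11290 stayed lower with CMP, at -1.70 ± 0.26, with a smaller difference than at 4 h (limma adjusted p of the change = 0.0108).

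**Figure D5:**
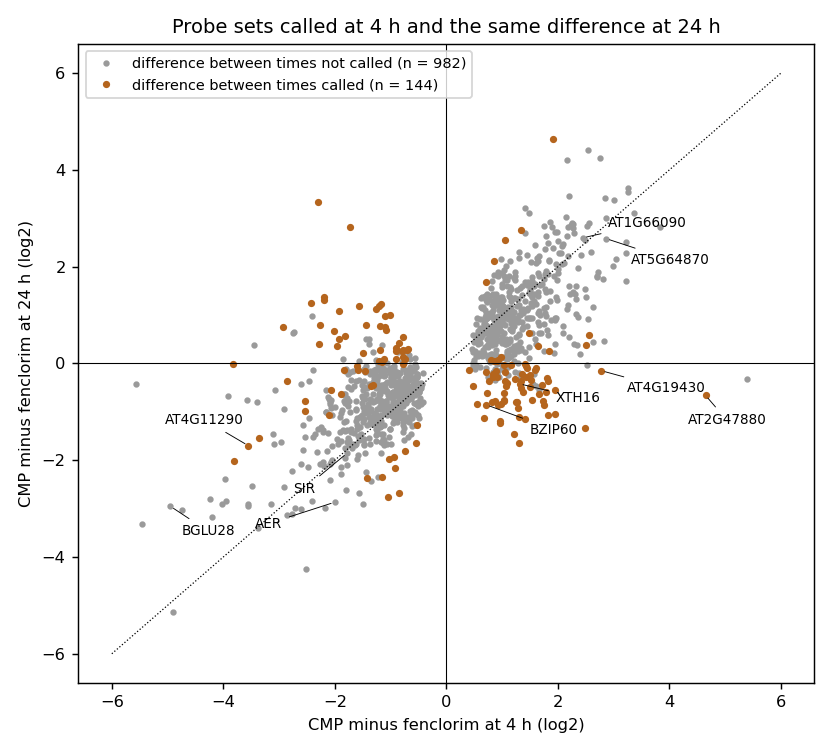
Difference between CMP and fenclorim (log2) at 4 h on the horizontal axis and at 24 h on the vertical axis for the 1126 probe sets called at 4 h; the dotted line marks equal differences, and the 144 whose difference between the times was called are brown. Most points keep their sign, and AT2G47880, AT4G19430, XTH16 and BZIP60 lie below 0 at 24 h after a positive difference at 4 h.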

How the data were processed

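Transcripts were measured on 18 ATH1 arrays, of which 6 enter the comparison. The authors deposited 1 linear intensity per probe set and array, made with MAS5 in GCOS, per the submitters' processing notes. For the version and the scaling target, the sources used here give nothing. Every array had a mean of 100.01 after trimming 2% at either end. Signals from 0.0102 to 8886 were kept on that scaling and turned into log2, so very low signals give large, uncertain differences.

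Of 22810 probe sets 64 were controls. The platform annotation lists 13513 with 1 gene, 503 with several and leaves 8730 unnamed, and 13436 matched a RefSeq TAIR10.1 locus, used for names only. Many loci have no description there, and their families and roles come from general knowledge of Arabidopsis genes.

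All 18 arrays entered a linear model with a mean for each group in limma 3.58.1 (R 4.3.3) with an intensity trend, over the 13946 probe sets of the filter, and was tested on simulated data. Tables and figures used Python 3.11.15. Named genes were the 15 largest increases and decreases with 1 gene, no overlap and a mean log2 signal above 4.18 in the higher group. With them were up to 4 calls of each list, every call of the 6 added families, and a set of 35 genes, of which 30 were tested. Of these 115 genes part is described. The members, the 66 lists, 26 of which had 3 or more tested genes, and the rule were chosen with earlier results of these data known, and 6 families (peroxidases, glutaredoxins, GDSL lipases, TIR-domain proteins, MATE transporters, alkenal reductase relatives) were added after fold changes had been seen.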

Additional observations from a re-analysis of the deposited data

Results flagged for a closer look

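For 16 of the genes taken by the naming rule the difference between the compounds at 4 h was called to differ from that at 24 h by a test of the change itself (limma, 18 arrays, adjusted p under 0.05). The values here are the 4 h difference minus the 24 h difference, on the log2 scale ± SE, with 3 arrays in each of the 4 groups. The count of all probe sets with such a change ran from 206 to 1558 when single 4 h arrays were left out, so each of these is uncertain.

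The change was positive for 12 genes, which were relatively higher with CMP at 4 h than at 24 h, except that UGT74D1 was lower with CMP at both times and more so at 24 h. Glutaredoxins made up 4 of them, AT2G47880 (5.31 ± 1.05), AT1G06830 (2.50 ± 0.62), AT4G15660 (2.21 ± 0.53) and AT2G30540 (2.18 ± 0.55). The other genes were AT4G19430 (2.93 ± 0.66), the MATE transporter AT2G04050 (2.38 ± 0.47), the lactate dehydrogenase AT4G17260 (1.75 ± 0.28) and XTH16 (1.73 ± 0.47). With them were the transcription factors BZIP60 (1.57 ± 0.24) and BZIP61 (1.50 ± 0.41), UGT74D1 (1.24 ± 0.34) and the calmodulin-like gene CML30 (1.12 ± 0.27). AT2G47880 passed the filter only through the CMP arrays, and with 16 added to every signal its 4 h difference was 2.00. BZIP61 also passed the filter only through the CMP arrays. With 16 added to every signal its 4 h difference was 0.50 and lost the call (limma adjusted p = 0.0875). The 4 h call of BZIP61 was also lost with quantile normalization, with arrays centred on their medians and with only the 6 arrays. AT4G15660 lost its 4 h call with quantile normalization, with centring on medians and with 16 added (limma adjusted p of 0.0834, 0.075 and 0.073). When some single arrays were left out, AT4G15660, AT1G06830, XTH16, BZIP60, BZIP61, UGT74D1 and CML30 lost their 4 h calls.

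The change was negative for 4 genes. AT3G20370, a TRAF-like protein, changed by -2.49 ± 0.68, the peroxidase AT4G11290 by -1.86 ± 0.37 and the aspartyl protease AT4G16563 by -1.80 ± 0.49, all of them lower with CMP at 4 h. CYP71B24 changed by -1.49 ± 0.39 and was higher with CMP at both times, more so at 24 h. Its 4 h call was lost when some single arrays were left out.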

How the results depend on the processing

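Of the 115 named genes, 100 were called, and all 100 kept their sign in every single-array omission, while 42 lost the call in at least 1 of them. Where the arrays of the compounds did not overlap, leaving out 1 array cannot change the sign, so the kept sign adds no support there. Without CMP replicate 2 and fenclorim replicate 3 together 84 kept the call, and with an offset of 16, chosen after the data were seen, 96 did and CML38, NDB2, SBT3.3 and UGT73B4 gained it. No named gene reversed under any alternative, but most were named because they were called, so this adds no support. Leaving out single arrays gave 264 to 630 higher and 323 to 611 lower calls, 174 to 380 and 213 to 371 shared with 24 h, 206 to 1558 changes between the times, and a higher share of 43.6% to 52.6% against 48.9%. That share was 42.8% with arrays centred on their medians and 52.1% with array weights. Array weights gave 1931 higher and 1776 lower calls, 756 and 719 of them also at 24 h, and 4120 changes between the times. A fit with the replicate number as a block over 18 arrays gave 481 and 507 calls and 453 changes between the times, and over only the 6 arrays 241 and 271. Deviations from the group means correlated at 0.225, -0.355 and -0.415 between same-numbered arrays and at 0.530 between CMP replicate 2 and fenclorim replicate 3. With 3 arrays per group such deviations are bound to each other, so they cannot tell whether the numbers pair the arrays. The causes of the shifts in the counts were not tested. Quantile normalization gave 505 and 546, no filter on low signals 521 and 519, and only the 6 arrays without a block 423 and 453. The 3 arrays per group limit the precision, and signals near the low end of the scale limit the size of differences.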

Other observations

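Beta-glucosidases split sugars from defence compounds, hormones and wall oligomers, and of 10 tested 2 were higher with CMP and 2 were lower, against 3.95% and 4.12% of all tested probe sets. BGLU15 read 206, 184 and 152 with fenclorim and 69.99, 76.6 and 79.7 with CMP, a difference of -1.25 ± 0.20 (limma adjusted p = 0.000855), beside the far lower BGLU28. The higher pair, BGLU25 and BGLU33, lost their calls when single arrays were left out, and there were 0 higher without CMP replicate 3 or fenclorim replicate 2. Of 14 trichome birefringence-like proteins, which acetylate wall polysaccharides, 1 was higher and 1 was lower, near those shares. The higher one, TBL28, passed the filter only through the CMP arrays. TBL38 was the lower one, at 78.4, 75.8 and 68.7 with fenclorim and 45.7, 40.8 and 29.7 with CMP, a difference of -0.96 ± 0.20 (limma adjusted p = 0.00623).

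Among 5 tested relatives of alkenal reductase 2 were lower, AER and AT5G16980, against 4.12% of all tested probe sets. This family was added after fold changes had been seen, so its counts add no support. The family median was -1.77, and without CMP replicate 2 and fenclorim replicate 3 together 1 was lower. AT5G16980 read 101, 107 and 104 with fenclorim and 14.96, 7.00 and 7.57 with CMP, a difference of -3.49 ± 0.88, and it lost the call without CMP replicate 2, CMP replicate 3, fenclorim replicate 1 or fenclorim replicate 2 (limma adjusted p of 0.0533 to 0.0749; 2.43e-07 to 0.0969 over all alternatives). It passed the filter only through the fenclorim arrays, and with 16 added to every signal the difference was -2.23. The TIR-domain gene AT5G44910 read 129, 107 and 139 with CMP and 39.1, 36.8 and 49.2 with fenclorim, a difference of 1.58 ± 0.26 (limma adjusted p = 0.00125).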
